A study of Homo sapiens with 9 samples.

Results

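The 52 genes described here encode heat shock proteins and the proteins that work with them. They were chosen by name, with earlier results of these data known. The list covers the heat shock factors, the cytosolic and mitochondrial chaperones with their co-chaperones, and the subunits of the cytosolic chaperonin TRiC. The count table held 20463 annotated genes, and all 52 members were among them. Of these, 51 were found by symbol, and HSPB11 was found by its Ensembl identifier ENSG00000081870, because the table lists it under its other name, IFT25. All 52 passed the filter on low counts that left 13968 genes for testing. Their levels are given as CPM, read counts scaled to a common library size, and 50 members had at least 1 CPM in every library. DNAJA4 and CRYAB fell under 1 CPM in some libraries.

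The RNA came from A375, an established human melanoma line with an activating BRAF mutation. One group of cultures received nothing, and the others received the plant polyphenol salvianolic acid B (SalB) at 100 µM or 200 µM, all for 48 h. Each of the 3 groups has 3 libraries, which the design text calls biological replicates and the labels assign to 1 batch. Separate cultures are not described, so p-values measure the spread between these libraries. The labels name no vehicle for the untreated control, and a single line in culture limits what the groups can stand for.

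Heat shock proteins bind unfolded stretches of other proteins and help them fold, assemble or reach degradation. When unfolded proteins build up, the transcription factor HSF1 is released from chaperones, forms trimers and switches on a set of these genes through heat shock elements, which are repeats of the unit nGAAn in alternating orientation. HSP70 proteins work with J-domain proteins, which deliver clients and trigger ATP hydrolysis, and with HSP110 and several BAG proteins, which release ADP. HSP90 takes clients from HSP70 and matures kinases and steroid receptors, among them mutant BRAF. TRiC folds actin and tubulin inside a closed chamber.

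The stretches before the start sites of 7 members are shown because heat shock elements are the known route from HSF1 to these genes. These 7 were chosen after their values were seen. Each stretch is the 250 bases that end just before the RefSeq start site on GRCh38.p14, written 5′ to 3′ on the gene's strand, and capitals mark matches to a pair of facing units, GAANNTTC or TTCNNGAA. RefSeq lists 3 starts for HSP90AB1, 2 for HSP90AA1 and 3 for DNAJB1, and a start with matches is shown; the other windows of HSP90AB1 and HSP90AA1 and 1 of those of DNAJB1 held none.
HSPA1A, chr6:31815293-31815542, plus strand: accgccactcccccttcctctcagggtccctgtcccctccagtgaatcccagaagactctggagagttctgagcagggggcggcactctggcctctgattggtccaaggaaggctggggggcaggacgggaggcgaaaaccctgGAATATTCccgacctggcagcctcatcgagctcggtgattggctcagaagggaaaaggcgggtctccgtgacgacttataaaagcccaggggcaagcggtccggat
HSPA1B, chr6:31827488-31827737, plus strand: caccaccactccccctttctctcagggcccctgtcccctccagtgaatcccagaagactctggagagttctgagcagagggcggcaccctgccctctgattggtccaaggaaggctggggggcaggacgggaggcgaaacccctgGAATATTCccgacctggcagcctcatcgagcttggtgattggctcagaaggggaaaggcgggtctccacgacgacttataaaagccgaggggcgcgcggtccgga
HSP90AB1, chr6:44247693-44247942, plus strand: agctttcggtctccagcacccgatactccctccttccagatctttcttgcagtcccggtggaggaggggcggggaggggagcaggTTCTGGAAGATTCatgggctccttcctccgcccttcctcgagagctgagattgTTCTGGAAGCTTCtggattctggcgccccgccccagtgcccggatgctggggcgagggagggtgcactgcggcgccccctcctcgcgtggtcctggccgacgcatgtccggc
HSPB1, chr7:76302423-76302672, plus strand: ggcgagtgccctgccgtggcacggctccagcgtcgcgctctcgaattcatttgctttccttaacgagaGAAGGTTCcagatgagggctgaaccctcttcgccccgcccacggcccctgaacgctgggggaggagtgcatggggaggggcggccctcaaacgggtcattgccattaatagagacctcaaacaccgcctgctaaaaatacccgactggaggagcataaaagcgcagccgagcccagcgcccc
HSPA8, chr11:123062137-123062386, minus strand: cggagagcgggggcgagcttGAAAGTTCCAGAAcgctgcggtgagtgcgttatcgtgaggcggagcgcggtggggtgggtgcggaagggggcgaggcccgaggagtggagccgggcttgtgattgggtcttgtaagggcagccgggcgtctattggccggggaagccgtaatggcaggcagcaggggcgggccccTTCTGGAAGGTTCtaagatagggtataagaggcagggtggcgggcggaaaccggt
HSP90AA1, chr14:102087045-102087294, minus strand: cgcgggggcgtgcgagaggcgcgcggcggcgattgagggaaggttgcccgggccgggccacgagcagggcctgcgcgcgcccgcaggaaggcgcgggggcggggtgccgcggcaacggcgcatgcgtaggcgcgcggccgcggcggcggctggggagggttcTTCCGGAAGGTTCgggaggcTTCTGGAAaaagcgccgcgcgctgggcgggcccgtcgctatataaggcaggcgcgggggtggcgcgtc
DNAJB1, chr19:14518398-14518647, minus strand: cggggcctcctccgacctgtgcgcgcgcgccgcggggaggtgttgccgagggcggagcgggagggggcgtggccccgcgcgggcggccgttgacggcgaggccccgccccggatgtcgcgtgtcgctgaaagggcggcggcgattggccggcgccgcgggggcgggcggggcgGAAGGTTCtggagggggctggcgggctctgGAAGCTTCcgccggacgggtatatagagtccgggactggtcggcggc

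HSPA1A and HSPA1B are neighbouring copies of the inducible HSP70 gene, and their stretches needed no edit at 227 of 240 aligned bases, or 94.6%. Both have the same capitalised match, GAATATTC, which begins 106 bases before the start of HSPA1A and 105 bases before the start of HSPA1B. HSP90AB1 and HSPA8 each have 2 runs of 3 alternating units, GAANNTTCNNGAA or TTCNNGAANNTTC, and HSP90AA1 has 1 such run and a separate pair. HSPB1 has 1 pair and DNAJB1 has 2. The motifs were searched on both strands in RefSeq windows of 250 bases before to 50 bases after each start, and each longer run contains the shorter pairs. Windows were at hand for 45 of the 52 members, and a gene counts where any of its windows holds the motif. A run of 3 units was found for 8 of these 45 members (17.8%), against 0.6% of all 27305 genes with a window. A pair of units was found for 22 members (48.9%), against 16.2% of all genes. Of the members that rose at 200 µM, 14 had a window and 10 of these had a pair (71.4%), against 12 of the 31 other members (38.7%). A run of 3 units was held by 2 of the 14 (14.3%) and by 6 of the 31 (19.4%). HSPA1A and HSPA1B, with the same match, count separately among the 10 with a pair. A gene with several windows has more chances of a match, and the difference in pairs was not tested. A match is only a string of letters in the window. Only exact units were searched, so its absence says nothing of imperfect units in the same window or of HSF1 binding elsewhere.

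Total counts were 27348621 to 30629685 per library. SOX10, a lineage factor of melanocytes, stood at 323 to 552 CPM, and 7 of 12 melanocytic markers exceeded 1 CPM in every library, whereas the pigment genes PMEL, MLANA and TYR stayed at or under 0.693 CPM. Of 5 leukocyte markers, 1 exceeded 1 CPM in every library (LYZ, at 1.27 to 4.09 CPM), and CD3E was at 0 in all 9. Of 5 epithelial markers, 2 did (KRT18, at 189 to 337 CPM, and KRT8, at 35.0 to 61.4 CPM), and KRT5 was at 0 in all 9. The summed level was 3.92 to 4.22 CPM in control, 2.98 to 4.32 CPM at 100 µM and 1.75 to 3.74 CPM at 200 µM for the leukocyte list. For the epithelial list it was 234 to 243 CPM in control, 310.0 to 342 CPM at 100 µM and 298 to 395 CPM at 200 µM. The summed level of 6 fibroblast or endothelial markers was 12.2 to 13.8 CPM in control, 33.9 to 39.1 CPM at 100 µM and 19.9 to 29.4 CPM at 200 µM. The part of these sums in the results was not tested. Library composition differed between the groups and within the 200 µM group. A gap was taken between GC-rich and GC-poor genes, as the median log2 deviation from the control mean in the highest eighth of genes by GC content minus that in the lowest eighth. It was -0.16 to 0.17 in control, 0.69 to 0.94 at 100 µM, and 0.47, 0.96 and -0.32 at 200 µM. The third 200 µM library also had 4.69% of its counts in mitochondrially encoded mRNAs, against 1.81% and 1.85% in the other libraries of that dose, 2.83% to 3.11% at 100 µM and 2.09% to 2.29% in control. The part of these differences in the results below was tested only by removing the GC trend and by leaving libraries out. In bulk RNA, fewer cells with a transcript and less of that transcript per cell cannot be told apart.

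**Figure D1:**
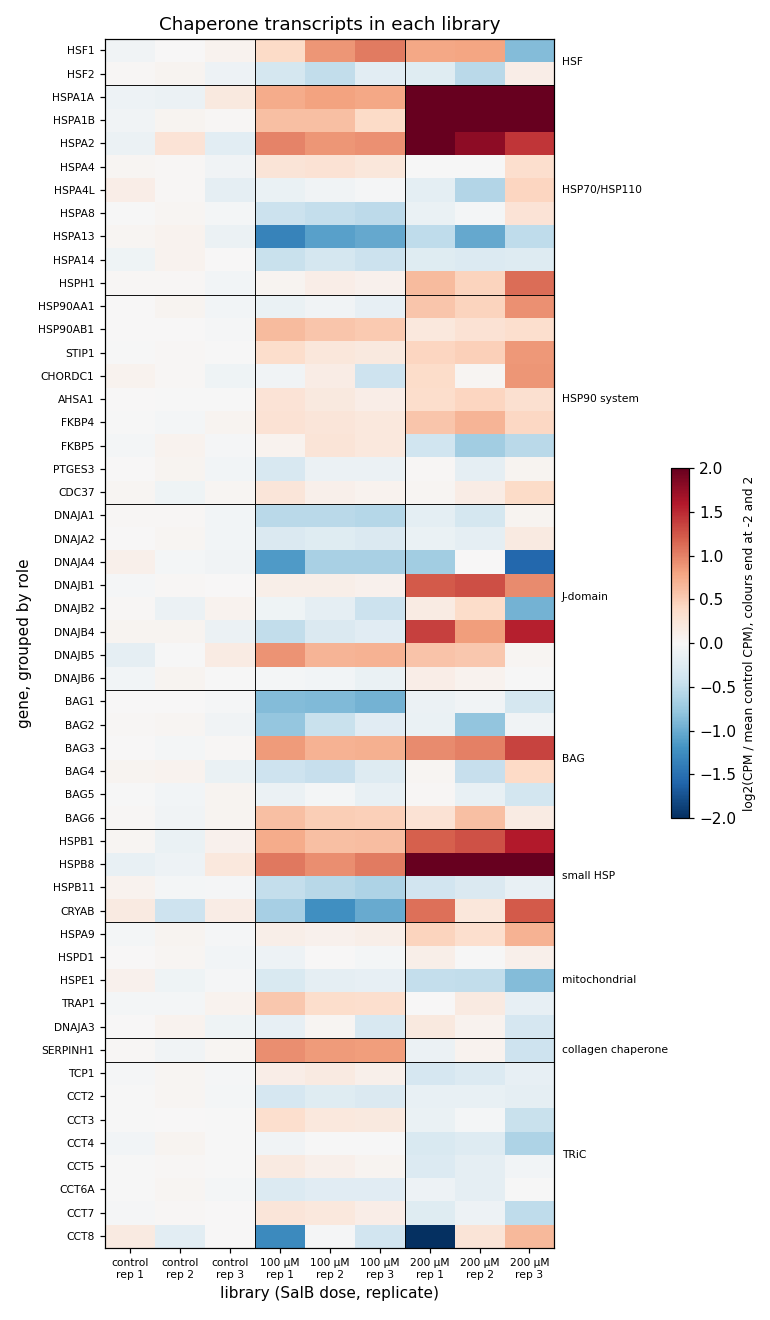
Level of each of the 52 genes in each library, as log2 of its CPM over the mean control CPM, with genes grouped by role in rows and the 9 libraries in columns from control to 200 µM. HSPA1A, HSPA1B, HSPB8 and HSPA2 are the reddest rows at 200 µM, and HSPA13 and BAG1 are blue in all libraries at 100 µM.

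At 200 µM, HSPA1A, HSPA1B, HSPB8 and HSPA2 had the largest rises. Relative to control, 15 of the 52 members rose (19.8% of all tested genes rose) and 7 fell (17.5% of all fell), so 30 were not called. In either direction, 37.3% of all tested genes were called in this comparison. A member is called where the adjusted p of edgeR's quasi-likelihood test is under 0.05, and each fold change below is a log2 value with its standard error. The median log2 fold change was 0.03 over the members and 0 over all tested genes. At 100 µM relative to control, 12 members rose (18.9% of all genes), 8 fell (18.2%) and 32 were not called, while 37.1% of all genes were called in either direction. The median was -0.04 over the members and -0.01 over all genes. Between the doses, 19 members were higher at 200 µM than at 100 µM (22.4% of all genes) and 10 were lower (21.9%), where 44.4% of all genes were called. Here the median was 0.17 over the members and -0.01 over all genes. The 3 comparisons share libraries and are therefore not independent of each other. Single libraries moved these counts. Without the third 200 µM library, 18 members rose and 15 fell at 200 µM (27.9% and 25.9% of all genes), and 23 rose and 12 fell at 100 µM (28.7% and 27.5% of all genes). HSF1, HSF2, HSPA4, STIP1, CDC37, DNAJB1, HSPA9, HSPA1B, HSPE1, DNAJA2, BAG4 and 4 TRiC genes were those that gained a call at 100 µM. Without the second control library 3 members fell at 200 µM (12.2% of all genes), and without the first 200 µM library 4 did (13.9%). The summed CPM of all 52 members was 18946 to 19725 in control, 18556 to 19164 at 100 µM, and 21075, 20970 and 24405 at 200 µM.

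HSF1, the main activator of heat shock genes, was measured at 12, 12.7 and 13.3 CPM in control, 16.5, 23.3 and 26.1 CPM at 100 µM, and 21.6, 22.0 and 6.95 CPM at 200 µM. All libraries at 100 µM lay above control, whereas the 200 µM libraries were split, with the third below every control. Its log2 fold change was 0.79 ± 0.37 at 100 µM (adjusted p = 0.12) and 0.41 ± 0.37 at 200 µM (adjusted p = 0.41). Without the third 200 µM library it was called at both doses, at 0.82 for 100 µM (adjusted p = 0.0011) and 0.80 for 200 µM (adjusted p = 0.0024). Its transcript is GC-rich, at 63.9%, and no fit with the GC trend removed called it. Under the alternatives its value ranged from 0.44 to 0.96 at 100 µM and from 0.16 to 0.80 at 200 µM. HSF2, which can form mixed trimers with HSF1, was at 38.7, 39.5 and 35.5 CPM in control, 29.8, 26.9 and 32.8 CPM at 100 µM, and 31.9, 26.2 and 41.6 CPM at 200 µM. It was called in no comparison with all libraries. Without the third 200 µM library HSF2 was called lower at both doses, at -0.32 for 100 µM (adjusted p = 0.014) and -0.37 for 200 µM (adjusted p = 0.013). These are transcript levels, and HSF1 is controlled mostly at the level of the protein.

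Within the HSP70 and HSP110 family, 4 of 9 members rose at 200 µM relative to control (19.8% of all tested genes) and 2 fell (17.5%). The largest rise of all members was that of HSPA1A (ENSG00000204389, chr6:31815464-31817946, protein coding, GENCODE v29 on GRCh38), the inducible HSP70. It was at 3.15, 3.10 and 3.88 CPM in control, 5.65, 5.90 and 5.80 CPM at 100 µM, and 21.6, 25.1 and 30.7 CPM at 200 µM. The groups did not overlap. The log2 fold change relative to control was 2.93 ± 0.16 at 200 µM, or 7.63-fold (adjusted p = 3.6e-06), and 0.78 ± 0.16 at 100 µM (adjusted p = 0.0046), where the call was lost with the GC trend removed (0.49, adjusted p = 0.11). The 200 µM level was 4.46-fold the 100 µM level (log2 2.16 ± 0.15, adjusted p = 8.7e-06). Its copy HSPA1B (chr6:31827735-31830255) was at 1.49, 1.62 and 1.59 CPM in control, 2.38, 2.37 and 2.04 CPM at 100 µM, and 12.7, 14.4 and 6.35 CPM at 200 µM. All libraries of each dose lay above all of the dose below it, and the third 200 µM library was lowest of its group for HSPA1B but highest for HSPA1A. HSPA1B rose by 2.83 ± 0.29 at 200 µM (adjusted p = 0.00011) and was not called at 100 µM (0.53 ± 0.28, adjusted p = 0.18).

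The split of reads between the copies is uncertain, since 71.4% of the 50-base stretches of the HSPA1B transcript also occur in HSPA1A, and 36.49% of HSPA1B's exon bases are shared with an annotated transcript on its own strand. How reads that match both copies were counted is not given, so their sum may also miss reads. Summed over both genes, which is an alternative added after the data were seen, the level was 4.64, 4.72 and 5.47 CPM in control, 8.03, 8.27 and 7.84 CPM at 100 µM, and 34.4, 39.5 and 37.1 CPM at 200 µM. The libraries of a dose lay close together on this sum. It rose by 2.90 ± 0.11 on the log2 scale at 200 µM, or 7.47-fold (adjusted p = 7.1e-07), and by 0.70 ± 0.11 at 100 µM (adjusted p = 0.0011). The sum was not refitted with the GC trend removed, where HSPA1A alone lost its 100 µM call. By these counts, the inducible pair stayed far below the constitutive HSP70 even at 200 µM. Per kilobase of transcript, the level at 200 µM was 10.4 CPM for HSPA1A and 4.42 CPM for HSPA1B, and 1378 CPM for HSPA8.

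HSPA8, the constitutive HSC70, took another course. It was at 3296, 3381 and 3223 CPM in control, 2462, 2373 and 2294 CPM at 100 µM, and 2999, 3211 and 3972 CPM at 200 µM. The 100 µM libraries lay below all others, and the 200 µM libraries spanned the control range. HSPA8 fell by 0.47 ± 0.10 at 100 µM (adjusted p = 0.006), and its log2 fold change at 200 µM was 0.04 ± 0.10 (adjusted p = 0.78). The 200 µM level was above the 100 µM level by 0.51 ± 0.10 (adjusted p = 0.003). The annotation lists 17 pseudogenes named after HSPA8, so some of its reads may have been assigned elsewhere or left out.

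HSPA2, an HSP70 best known from testis, was at 2.56, 3.34 and 2.40 CPM in control, 5.52, 5.09 and 5.19 CPM at 100 µM, and 11.2, 9.61 and 7.47 CPM at 200 µM. The groups stepped up with dose without overlap. It rose by 0.93 ± 0.19 at 100 µM (adjusted p = 0.0046) and by 1.77 ± 0.19 at 200 µM (adjusted p = 0.00014). HSPH1, an HSP110 that releases ADP from HSP70, was at 317, 316 and 300 CPM in control, 323, 340 and 329 CPM at 100 µM, and 480, 425 and 677 CPM at 200 µM. It rose by 0.76 ± 0.15 at 200 µM (adjusted p = 0.0037), and its value at 100 µM was 0.09 ± 0.15 (adjusted p = 0.67), or 0.39 with the GC trend removed (adjusted p = 0.0011). HSPA13, an HSP70-like ATPase of the microsomes, fell at both doses. It was at 164, 167 and 147 CPM in control, 62.9, 74.9 and 78.0 CPM at 100 µM, and 112, 78.8 and 112 CPM at 200 µM. Neither dose overlapped control. The log2 fold change was -0.66 ± 0.15 at 200 µM (adjusted p = 0.0068) and -1.15 ± 0.15 at 100 µM (adjusted p = 0.00046). With the GC trend removed it was -0.26 at 200 µM (adjusted p = 0.044) and -0.52 at 100 µM (adjusted p = 0.002), and the 200 µM call was lost when a replicate block was added (-0.27, adjusted p = 0.054). HSPA14, which binds ribosomes, had log2 fold changes of -0.26 ± 0.07 at 200 µM (adjusted p = 0.025) and -0.41 ± 0.07 at 100 µM (adjusted p = 0.0029). Both calls were lost with the trends on GC and length removed, at -0.05 for 200 µM (adjusted p = 0.67) and -0.03 for 100 µM (adjusted p = 0.82). The 200 µM call was also lost with the GC trend alone removed (-0.18, adjusted p = 0.11). The 200 µM call of HSPA14 ended without the second control (adjusted p = 0.1), the third control (adjusted p = 0.079) or the first 200 µM library (adjusted p = 0.056). A second gene record of that name shares 17.4% of its exon bases. HSPA4 and HSPA4L, the other HSP110 genes, were not called in any comparison and ranged over 330 to 435 CPM and 12.6 to 25.5 CPM. All 100 µM libraries of HSPA4 lay above control (0.26 ± 0.10, adjusted p = 0.066). HSPA4 was called higher at 100 µM in 9 of the 19 alternatives. Among these were DESeq2 (adjusted p = 0.032) and removal of the GC trend (0.44, adjusted p = 0.0002).

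**Figure D2:**
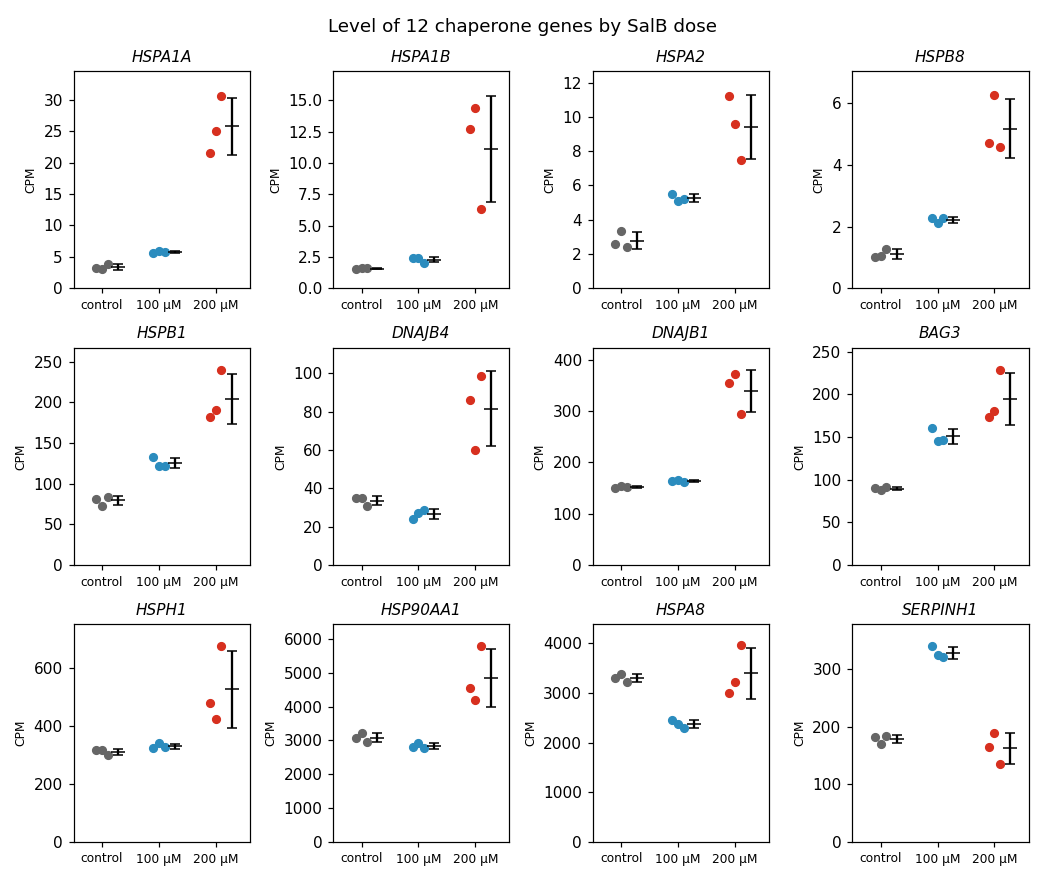
CPM of 12 members by SalB dose, 1 point per library, with a bar for the mean and SD of 3 libraries beside each group; every axis starts at 0. HSPA1A reached 21.6 to 30.7 CPM at 200 µM, HSPA8 was lowest at 100 µM, and SERPINH1 was highest at 100 µM, at 321 to 340 CPM.

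In the HSP90 group, 5 of 9 members rose at 200 µM (19.8% of all tested genes) and 1 fell (17.5%). At 100 µM, 3 rose (18.9%) and none fell (18.2%). Cytosolic HSP90 is made from an inducible gene, HSP90AA1, and a constitutive gene, HSP90AB1, and the 2 doses ranked differently for them. HSP90AA1 was at 3081, 3204 and 2953 CPM in control, 2796, 2919 and 2759 CPM at 100 µM, and 4536, 4179 and 5798 CPM at 200 µM. It rose by 0.65 ± 0.11 at 200 µM (adjusted p = 0.002), with every 200 µM library above all others, and its value at 100 µM was -0.12 ± 0.11 (adjusted p = 0.42). HSP90AB1 was at 1487, 1478 and 1454 CPM in control, 2280, 2163 and 2120 CPM at 100 µM, and 1714, 1800 and 1868 CPM at 200 µM. The 100 µM libraries were highest and the control libraries lowest, without overlap. HSP90AB1 rose by 0.57 ± 0.06 at 100 µM (adjusted p = 2e-04) and by 0.28 ± 0.06 at 200 µM (adjusted p = 0.0068). Between doses, 200 µM relative to 100 µM, HSP90AA1 was higher by 0.78 ± 0.11 (adjusted p = 0.00056) and HSP90AB1 lower at -0.29 ± 0.06 (adjusted p = 0.0055).

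Among the co-chaperones of HSP90, STIP1, the adaptor that joins HSP70 to HSP90, rose by 0.61 ± 0.11 at 200 µM (adjusted p = 0.0031), to 808 ± 141 CPM at 200 µM against 531 ± 5.93 CPM in control (SD, n = 3 each). FKBP4, a peptidyl-prolyl isomerase in steroid receptor complexes, rose by 0.55 ± 0.08 at 200 µM (adjusted p = 0.00083) and by 0.24 ± 0.08 at 100 µM (adjusted p = 0.042). AHSA1, which activates the ATPase of HSP90, rose by 0.37 ± 0.07 at 200 µM (adjusted p = 0.0029) and by 0.20 ± 0.07 at 100 µM (adjusted p = 0.045). The 100 µM calls were weak: that of FKBP4 ended without any 1 control or 100 µM library or the first 200 µM library (adjusted p = 0.053 to 0.14). That of AHSA1 ended without any 1 control or 100 µM library (adjusted p = 0.054 to 0.16). FKBP5, which competes with FKBP4 for such complexes and is a target of the glucocorticoid receptor, was at 29.8, 32.1 and 30.0 CPM in control, 32.2, 36.5 and 35.5 CPM at 100 µM, and 23.3, 18.9 and 21.0 CPM at 200 µM. It fell at 200 µM, by 0.54 ± 0.10 relative to control (adjusted p = 0.003) and by 0.72 ± 0.10 relative to 100 µM (adjusted p = 0.00046). CDC37, the kinase adaptor of HSP90, ranged over 309 to 427 CPM, PTGES3 (p23) over 469 to 607 CPM and CHORDC1 over 82.7 to 204 CPM, and none was called in any comparison. CHORDC1 was closest, at 0.57 ± 0.21 between 200 µM and 100 µM (adjusted p = 0.051). It was called there with median-ratio scaling (adjusted p = 0.048) and by DESeq2 (adjusted p = 0.02), and with the GC trend removed it was called at 200 µM relative to control (0.68, adjusted p = 0.003).

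Among the 8 J-domain genes, 2 rose (19.8% of all tested genes) and none fell (17.5%) at 200 µM relative to control. At 100 µM, 1 rose (18.9%) and 1 fell (18.2%). DNAJB1 (chr19:14514770-14529770), the HSP40 that serves HSP70 after heat shock, was at 150.0, 154 and 152 CPM in control, 164, 165 and 161 CPM at 100 µM, and 354, 372 and 294 CPM at 200 µM. The 200 µM libraries stood well apart from the other 6. It rose by 1.16 ± 0.09 at 200 µM, or 2.24-fold (adjusted p = 2.7e-05), and its value at 100 µM was 0.11 ± 0.09 (adjusted p = 0.40). DNAJB4, a close relative of DNAJB1, was at 34.9, 34.8 and 30.7 CPM in control, 23.9, 27.3 and 28.6 CPM at 100 µM, and 85.9, 60.0 and 98.6 CPM at 200 µM. All 100 µM libraries lay below control and all 200 µM libraries above it. DNAJB4 rose by 1.28 ± 0.17 at 200 µM (adjusted p = 0.00047). Its value at 100 µM was -0.33 ± 0.17 (adjusted p = 0.16) and turned to 0.43 when the GC trend was removed (adjusted p = 0.0022). DNAJA1, a farnesylated partner of HSC70, was at 622, 625 and 588 CPM in control, 420, 421 and 412 CPM at 100 µM, and 532, 478 and 638 CPM at 200 µM. It fell by 0.55 ± 0.10 at 100 µM (adjusted p = 0.0029), like HSPA8, and was not called at 200 µM (-0.15 ± 0.10, adjusted p = 0.26). DNAJB5 rose at 100 µM by 0.76 ± 0.17 (adjusted p = 0.0079), from a low level, at 7.70 ± 0.674 CPM against 4.54 ± 0.54 CPM in control (SD, n = 3 each). DNAJA2 (130.0 to 181 CPM), DNAJB6 (183 to 220.0 CPM), DNAJB2 (11.5 to 28.5 CPM) and DNAJA4 (0.119 to 0.381 CPM) were not called in any comparison.

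Several BAG proteins release ADP from HSP70 and link it to other machines. Of 6 genes, 1 rose (19.8% of all tested genes) and none fell (17.5%) at 200 µM, and 2 rose (18.9%) and 1 fell (18.2%) at 100 µM. BAG3 (chr10:119651370-119677819), which passes HSP70 clients to autophagy together with HSPB8, was at 90.1, 87.6 and 91.2 CPM in control, 161, 145 and 147 CPM at 100 µM, and 173, 181 and 229 CPM at 200 µM. The groups stepped up with dose without overlap. BAG3 rose by 0.75 ± 0.11 at 100 µM (adjusted p = 0.00092) and by 1.12 ± 0.11 at 200 µM (adjusted p = 9.2e-05). BAG1, which couples HSP70 to the proteasome, was at 128, 129 and 126 CPM in control, 70.1, 68.9 and 66.6 CPM at 100 µM, and 118, 122 and 99.9 CPM at 200 µM. It fell by 0.90 ± 0.09 at 100 µM (adjusted p = 9.8e-05), and its value at 200 µM was -0.17 ± 0.09 (adjusted p = 0.14). So at 100 µM BAG3 was 1.68-fold higher than control and BAG1 was 1.86-fold lower. BAG6, which guides membrane proteins with tail anchors, rose by 0.53 ± 0.13 at 100 µM (adjusted p = 0.012), and this call was lost when the GC trend was removed (0.24, adjusted p = 0.071) or the second control library left out (0.49, adjusted p = 0.054). BAG2 (29.1 to 51.6 CPM), BAG4 (17.5 to 32.0 CPM) and BAG5 (41.0 to 54.5 CPM) were not called in any comparison, and 42.73% of the exon bases of BAG2 overlap RAB23 on the other strand.

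Small heat shock proteins hold unfolded clients without using ATP. HSPB1 (HSP27, chr7:76302544-76304295) was at 81.4, 72.7 and 84.0 CPM in control, 133, 121 and 122 CPM at 100 µM, and 182, 191 and 239 CPM at 200 µM. The groups stepped up with dose without overlap. It rose by 1.36 ± 0.11 at 200 µM, or 2.57-fold (adjusted p = 4e-05), and by 0.66 ± 0.11 at 100 µM (adjusted p = 0.0022), where the call was lost with the GC trend removed (0.29, adjusted p = 0.33). HSPB8, the partner of BAG3, was at 1.00, 1.03 and 1.28 CPM in control, 2.28, 2.11 and 2.27 CPM at 100 µM, and 4.71, 6.27 and 4.57 CPM at 200 µM. It also stepped up with dose without overlap. HSPB8 rose by 1.00 ± 0.19 at 100 µM (adjusted p = 0.0036) and by 2.22 ± 0.19 at 200 µM (adjusted p = 4.4e-05), or 4.67-fold, from counts of 29 to 38 reads in control and 115 to 176 reads at 200 µM. CRYAB, the αB-crystallin, was at 0.52, 0.344 and 0.506 CPM in control, 0.289, 0.195 and 0.227 CPM at 100 µM, and 0.979, 0.534 and 1.07 CPM at 200 µM. It was called only between doses, 1.84 ± 0.38 higher at 200 µM than at 100 µM (adjusted p = 0.0038), on 6 to 27 reads a library, and 20.63% of its exon bases overlap HSPB2 on the other strand. HSPB11 goes against its name, since it is known as a subunit of the intraflagellar transport complex of cilia. It was at 68.1, 62.7 and 63.4 CPM in control, 46.3, 44.2 and 42.3 CPM at 100 µM, and 49.7, 53.2 and 58.5 CPM at 200 µM. It fell by 0.55 ± 0.09 at 100 µM (adjusted p = 0.0015) and by 0.27 ± 0.09 at 200 µM (adjusted p = 0.038). The 200 µM call ended without any 1 library other than the third 200 µM library (adjusted p = 0.053 to 0.14).

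In mitochondria, HSPA9 imports and folds proteins, HSPD1 and HSPE1 form the chaperonin HSP60 with its lid, and TRAP1 is the local HSP90. HSPA9 rose by 0.50 ± 0.09 at 200 µM (adjusted p = 0.0025), to 699 ± 89.0 CPM at 200 µM against 493 ± 16.4 CPM in control (SD, n = 3 each). HSPD1 was at 1033, 1048 and 990 CPM in control, 949, 1032 and 992 CPM at 100 µM, and 1116, 1018 and 1100 CPM at 200 µM. The groups overlapped and it was not called in any comparison. HSPE1 was at 208, 185 and 193 CPM in control, 158, 173 and 175 CPM at 100 µM, and 140, 139 and 107 CPM at 200 µM. It fell by 0.60 ± 0.11 at 200 µM (adjusted p = 0.0028) although it is transcribed from the same divergent promoter as HSPD1. The annotation names 26 pseudogenes after HSPE1 and 17 after HSPD1, and 14.21% of the exon bases of HSPE1 overlap HSPD1 on the other strand, so neither count is exact. TRAP1 rose by 0.41 ± 0.10 at 100 µM (adjusted p = 0.012), to 185 ± 14.6 CPM at 100 µM against 139 ± 5.83 CPM in control (SD, n = 3 each), and 29.29% of its exon bases overlap DNASE1 on the other strand. The call ended without the first control (adjusted p = 0.051), the second control (adjusted p = 0.05) or the first 100 µM library (adjusted p = 0.053). It was kept with the GC trend alone removed, but lost when a replicate block was added to that (0.16, adjusted p = 0.094). The value of TRAP1 at 200 µM was 0.02 ± 0.10 (adjusted p = 0.90). DNAJA3, the mitochondrial J-domain protein, ranged over 56.0 to 81.7 CPM and was not called in any comparison.

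SERPINH1 (HSP47, chr11:75562056-75572783), the collagen chaperone of the endoplasmic reticulum, was highest at the lower dose. It was at 183, 171 and 184 CPM in control, 340, 325 and 321 CPM at 100 µM, and 165, 189 and 135 CPM at 200 µM. The 100 µM libraries stood far above the others, and the 200 µM libraries overlapped control. It rose by 0.88 ± 0.11 at 100 µM, or 1.83-fold (adjusted p = 5e-04), while its value at 200 µM was -0.14 ± 0.11 (adjusted p = 0.39), or -0.27 with the GC trend removed (adjusted p = 0.0011). The 200 µM level was 2.01-fold below the 100 µM level (log2 -1.01 ± 0.11, adjusted p = 0.00013), the largest fall of any member between doses.

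**Figure D3:**
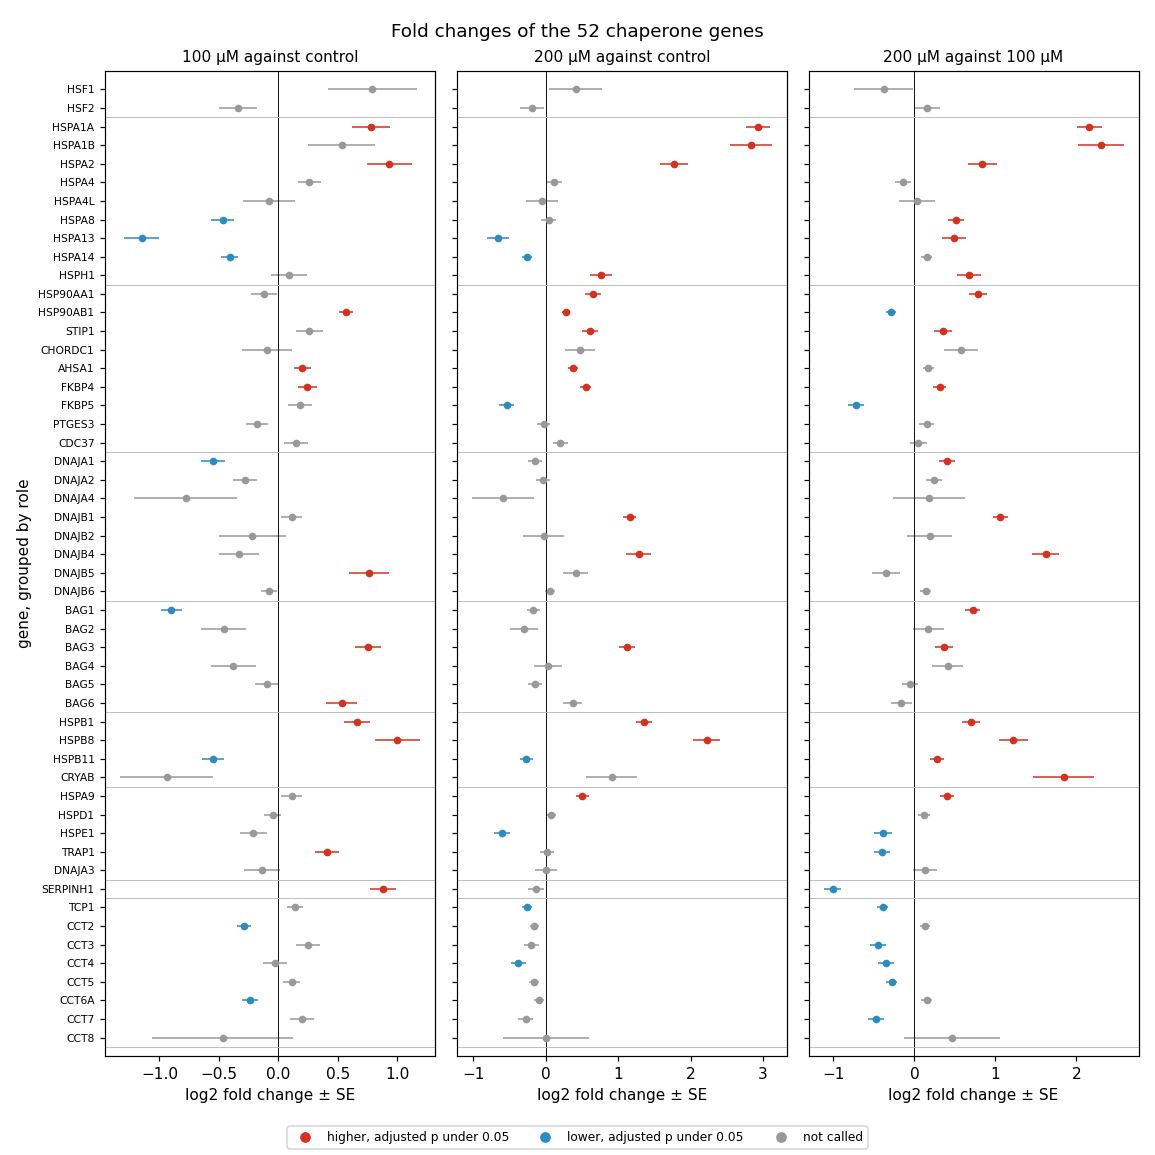
Log2 fold changes of the 52 members with their standard errors in the 3 comparisons, 100 µM against control, 200 µM against control and 200 µM against 100 µM; red points rose and blue points fell at an adjusted p under 0.05. At 200 µM relative to control, HSPA1A, HSPA1B and HSPB8 lie above 2, and the TRiC subunits lie at or below 0.

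TRiC is a double ring of 8 different subunits, which the assembled complex holds in equal number. Relative to control, 2 of the 8 subunit genes fell at 200 µM (TCP1 and CCT4), where 17.5% of all tested genes fell. At 100 µM 2 fell (CCT2 and CCT6A), where 18.2% of all tested genes fell. None rose at either dose, against 19.8% of all tested genes at 200 µM and 18.9% at 100 µM. Under total-count scaling, TCP1 and CCT5 also rose at 100 µM, and CCT2 and CCT5 also fell at 200 µM. With the GC trend removed, TCP1 and CCT5 rose at 100 µM, and CCT3 and CCT7 fell at 200 µM. TCP1, CCT3, CCT5 and CCT7 rose at 100 µM with GC and length trends removed, and also with the 2 groups alone. TCP1 was at 392, 409 and 391 CPM in control, 435, 448 and 428 CPM at 100 µM, and 316, 327 and 355 CPM at 200 µM. The 200 µM libraries were lowest and the 100 µM libraries highest, without overlap. TCP1 fell by 0.26 ± 0.07 at 200 µM (adjusted p = 0.017), and its value at 100 µM was 0.14 ± 0.07 (adjusted p = 0.14). CCT4 was at 541, 581 and 556 CPM in control, 530, 558 and 554 CPM at 100 µM, and 452, 468 and 365 CPM at 200 µM. It fell by 0.38 ± 0.10 at 200 µM (adjusted p = 0.012), and this call was lost when the GC trend was removed (-0.35, adjusted p = 0.05) or the second control left out (-0.36, adjusted p = 0.05). The call of TCP1 ended without the first control (adjusted p = 0.052), the second control (adjusted p = 0.07) or the first 200 µM library (adjusted p = 0.053). CCT2 fell by 0.29 ± 0.06 (adjusted p = 0.0049) and CCT6A by 0.24 ± 0.07 (adjusted p = 0.02) at 100 µM, and both calls were lost when the GC trend was removed. That of CCT6A also ended without the first or second control or any 1 of the 100 µM libraries (adjusted p = 0.065 to 0.083).

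The clearest difference for TRiC lay between the doses. Relative to 100 µM, 5 of the 8 genes were lower at 200 µM: CCT7 by -0.47 ± 0.10 (adjusted p = 0.0038), CCT3 by -0.45 ± 0.10 (adjusted p = 0.0065), TCP1 by -0.39 ± 0.07 (adjusted p = 0.0016), CCT4 by -0.35 ± 0.10 (adjusted p = 0.015) and CCT5 by -0.28 ± 0.07 (adjusted p = 0.013, or 0.053 without the first 100 µM library). In this comparison 21.9% of all tested genes were lower and 22.4% higher. CCT2 (0.13 ± 0.06, adjusted p = 0.1), CCT6A (0.15 ± 0.07, adjusted p = 0.098) and CCT8 (0.46 ± 0.59, adjusted p = 0.55) went the other way and were not called. DESeq2 called CCT2 (adjusted p = 0.029) and CCT6A (adjusted p = 0.038) higher at 200 µM than at 100 µM. The summed CPM of the 8 genes was 4805, 4940 and 4791 in control, 4860, 4917 and 4763 at 100 µM, and 4108, 4371 and 4212 at 200 µM. The 200 µM sums were below all others, whereas the sums of control and 100 µM overlapped. CCT5 shares 30.09% of its exon bases with an antisense transcript.

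CCT8 stood apart from its partners and is described because of its spread, which was noticed in the data. It was at 154, 118 and 138 CPM in control, 56.5, 135 and 105 CPM at 100 µM, and 30.9, 163 and 215 CPM at 200 µM. The first library of each treated group was the lowest, and the 200 µM libraries ranged from 0.23 to 1.57 times the control mean, where the other 7 genes ranged from 0.65 to 1.00 times. Its log2 fold change was 0 ± 0.59 at 200 µM, and it was not called in any comparison. Per kilobase of transcript, the other 7 genes ranged in control from 159 CPM (TCP1) to 382 CPM (CCT2), whereas CCT8 was at 68.1 CPM. What sets its count apart was not tested.

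**Figure D4:**
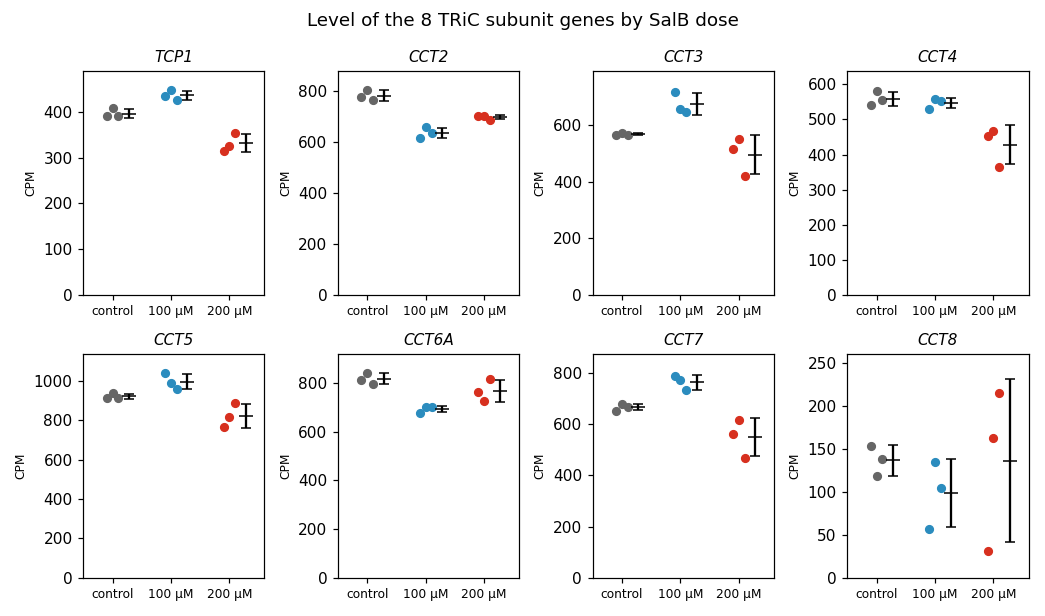
CPM of the 8 TRiC subunit genes by SalB dose, 1 point per library, with the mean and SD of 3 libraries beside each group; every axis starts at 0. At 200 µM, TCP1 lies at 316 to 355 CPM, below its other groups, and CCT8 spreads from 30.9 to 215 CPM.

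By level, HSC70 and HSP90 led the list in every group. Per kilobase of transcript, HSPA8 averaged 1340 CPM in control, 965 CPM at 100 µM and 1378 CPM at 200 µM. HSP90AA1 averaged 911, 836 and 1432 CPM in the same order of doses, and HSP90AB1 averaged 551, 818 and 671 CPM. HSPD1 came next in control at 417 CPM. The genes with the largest folds at 200 µM were among the lowest, with HSPA2 at 0.513 CPM, HSPB8 at 0.514 CPM, HSPA1B at 0.621 CPM and HSPA1A at 1.36 CPM per kilobase in control. Summed over the HSP90 group, the level was 6307 to 6604 CPM in control, 6860 to 7151 CPM at 100 µM, and 8519, 8223 and 10325 CPM at 200 µM. All libraries of each dose lay above all of the dose below it.

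GC content moved with the calls at 100 µM. The members that rose at 100 µM had a median transcript GC of 55.9%, those that fell 44.1% and those not called 43.7%. At 200 µM relative to control the medians were 51.7% for those that rose, 43.8% for those that fell and 44.4% for those not called. With each library's trend on GC content removed, 16 members rose and 7 fell at 100 µM (20.9% and 18% of all genes), of which 8 and 6 were also called without the correction. HSPA1A, HSPB1, BAG6, AHSA1, CCT2 and CCT6A lost their calls at 100 µM. At 200 µM, 17 rose and 9 fell (24.5% and 22.9% of all genes), and the 17 included all 15 that rose without the correction. Every one of those 15 was called in the same direction under each of the 19 alternatives tried.

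**Figure D5:**
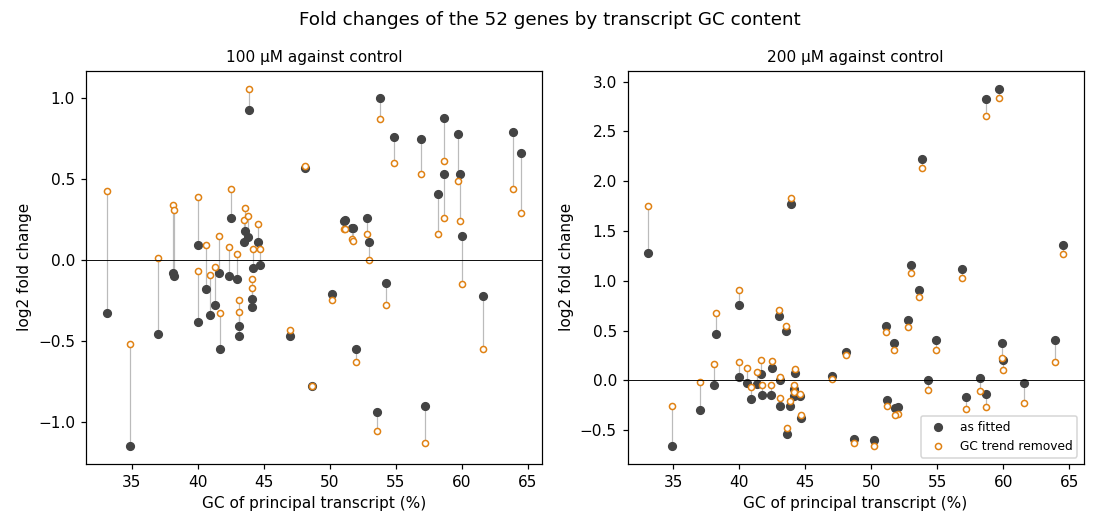
Log2 fold change of each of the 52 members against the GC content of its principal transcript, in percent, for 100 µM against control and 200 µM against control; filled points are the values as fitted and open points the values after removal of each library's GC trend, joined by a line. The shift is larger at 100 µM, where HSPB1 moves to 0.29, than at 200 µM, where HSPA1A stays near 3.

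A further 117 genes of the same pathways that are no members were grouped in 6 lists, and 107 of them were tested. The lists were chosen with earlier results of these data known, so they are no independent check on the members. Relative to control, 16 of the 107 rose and 18 fell at 200 µM, and 15 rose and 29 fell at 100 µM. Of all tested genes, 19.8% rose and 17.5% fell at 200 µM, and 18.9% rose and 18.2% fell at 100 µM. The list of 11 other genes known as targets of HSF1 had 6 higher and 1 lower at 200 µM, with a median log2 fold change of 0.67, and 2 higher and 5 lower at 100 µM, with a median of -0.26. Over all tested genes the medians were 0 and -0.01. Between doses, 9 of the 11 were higher at 200 µM (22.4% of all tested genes) and 1 was lower (21.9%). In that list, CLU, a secreted chaperone, was at 14.5 ± 2.56 CPM at 200 µM against 4.37 ± 0.657 CPM in control (1.73 ± 0.17 on the log2 scale, adjusted p = 1e-04). IER5, which helps to activate HSF1, was at 67.6 ± 27 CPM at 200 µM against 25.8 ± 3.17 CPM in control (1.39 ± 0.27, adjusted p = 0.0038).

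For the list counts that follow, the shares of all tested genes were 19.8% higher and 17.5% lower at 200 µM, and 18.9% and 18.2% at 100 µM. The list of 23 tested partners of HSP70 and HSP90 had none higher and 6 lower at 200 µM, and 3 higher and 7 lower at 100 µM. The 19 other genes of the TRiC, prefoldin and tubulin-folding routes had 1 higher and 5 lower at 200 µM, and 1 higher and 7 lower at 100 µM. Of 35 tested J-domain genes outside the members, 4 rose and 3 fell at 200 µM, and 4 rose and 6 fell at 100 µM. Of 10 mitochondrial chaperones and proteases, 1 rose and 1 fell at 200 µM, and 2 rose and 2 fell at 100 µM. Of 10 tested relatives of the heat shock families, 4 rose and 2 fell at 200 µM, and 3 rose and 3 fell at 100 µM. HYOU1, an HSP110 of the endoplasmic reticulum, rose at 100 µM to 179 ± 16.0 CPM against 69.8 ± 14.1 CPM in control (1.36 ± 0.15, adjusted p = 0.00022), and rose by 1.29 ± 0.15 at 200 µM (adjusted p = 0.00025). HSF2BP, which binds HSF2, fell at 200 µM to 0.335 ± 0.0385 CPM against 1.16 ± 0.132 CPM in control (-1.78 ± 0.27, adjusted p = 0.001). HSPB6 and HSPB3 had the largest fitted changes at 100 µM, at levels close to 0: HSPB6 at 0.42 ± 0.0342 CPM at 100 µM against 0.0574 ± 0.0994 CPM in control, and HSPB3 at 0.0647 ± 0.0649 CPM against 0.331 ± 0.168 CPM.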

How the data were processed

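The authors deposited whole-number read counts per gene for 9 libraries, with no normalization. The submitters' processing notes name GRCh38 and the tools HISAT2, featureCounts, FastQC and DESeq2. Their roles and versions, the annotation and the strand setting are not given, so overlapping genes may share reads. Per the labels' protocols, mRNA was selected on poly-T beads. Of 22605 features, 2142 assembled transcripts (1.25% to 1.41% of counts) were left out.

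Counts were fitted in R 4.3.3 with edgeR 4.0.16: filterByExpr (13968 genes kept), TMM scaling and a robust quasi-likelihood F test over all 9 libraries with the group as the term (6 residual degrees of freedom). Benjamini-Hochberg adjustment was run over all genes of a comparison, and genes were called under 0.05. The SE is the size of the log2 fold change over the square root of F. Two-sided exact tests of 3 against 3 libraries cannot go below p = 0.1, so none was used. Replicates of a group differed beyond sampling noise (chi-square per degree of freedom 7.47 to 155). The fit was tested on simulated counts. Lengths, GC content and overlaps came from GENCODE v29, and sequences from RefSeq. The authors' deposited table of 100 features was not used.

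Every member is accounted for, with values in every library for landmark members and, per comparison with control, the 4 members that rose most and the 4 that fell most among those called. DNAJB4, CCT8 and CRYAB were singled out after their values were seen. Members and lists were chosen with earlier results of these data known. Alternatives were median-ratio and total-count scaling, no filter or at least 1 CPM in 3 libraries, 2 groups alone, replicate number as a block, removal of trends on GC content and length, DESeq2 1.42.0, leaving out each library, and, added later, summed counts of HSPA1A and HSPA1B.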

Additional observations from a re-analysis of the deposited data

How the results depend on the processing

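Of 2955 values of single members under the 19 alternatives, 2702 kept their direction and their side of the threshold, 132 gained a call, 112 lost it and 9 changed sign with a call in either fit; sign changes between uncalled values were not counted. At 100 µM relative to control, removal of the GC trend gave HSPA4L 0.34 and DNAJB4 0.43, removal of GC and length trends gave CHORDC1 0.42, PTGES3 0.33, DNAJB4 0.53, DNAJB6 0.45 and CCT2 0.01, and the replicate block with GC gave DNAJB4 0.43. At 200 µM, GC and length gave PTGES3 0.27. The causes were not tested.

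With the 2 groups alone, 24 members rose (29.8% of all genes) and 16 fell (31.4%) at 100 µM, with 8417 genes called. At 200 µM 4 then fell (12.8%). With GC and length removed, 20 rose (17.5%) and 6 fell (15.4%) at 100 µM. Leaving out 1 library gave 8 to 23 higher and 7 to 12 lower at 100 µM with 3469 to 7943 genes called, 15 to 18 higher and 3 to 15 lower at 200 µM with 3719 to 7614 genes, and 15 to 24 higher and 8 to 11 lower between doses with 4813 to 7668 genes. The highest of these counts came without the third 200 µM library, except 12 lower at 100 µM, which was also reached without the second. The count of 3 lower at 200 µM came without the second control, and 4 without the first 200 µM library. Over these fits, 13% to 28.7% of all genes were higher and 11.4% to 27.5% lower at 100 µM. The shares were 14.3% to 27.9% and 11.9% to 25.9% at 200 µM, and 16.7% to 25.8% and 17% to 28.3% between doses.

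All 15 members that rose at 200 µM kept their calls in every alternative, as did 2 of the 7 that fell (FKBP5 and HSPE1). At 100 µM, 6 of 12 higher and 5 of 8 lower did, and between doses 14 of 19 and 7 of 10. Replicate numbers were not taken as pairs, since same-numbered libraries correlated at -0.163 to 0.027 in their deviations from group means. With the replicate block, 15 members rose and 5 fell at 200 µM, against 16.6% and 14.7% of all genes (4369 called). At 100 µM 10 rose and 7 fell, against 15.8% and 14.7% (4264). Between doses 16 rose and 10 fell, against 19.4% and 19.3% (5404). Counts of a few CPM limit HSPB8, HSPA2, CRYAB and DNAJA4.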
